A study of Mus musculus with 2 samples.

Results

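The genes described here are 42 well-known genes of the S and G2/M phases of the cell cycle, 17 of them used in S phase and 25 in G2 or mitosis. They were chosen by name, with earlier results of these data known, and all 42 were found among the 19320 features of a single-cell RNA table of mouse prostate. The tissue came from R26 mTmG/hAR:Osr1 Cre/+ mice on a mixed C57BL/6 and 129S1/SvImJ background. In these mice the Cre expressed from the Osr1 locus switches on a human androgen receptor transgene (hARtg) and a membrane green fluorescent reporter (mGFP) in the same cells and their descendants, so the one cannot be varied without the other. One sample was prostatic intraepithelial neoplasia (PIN) and the other prostatic adenocarcinoma (PCa) from older mice, each with 1 library prepared with droplet 3′ chemistry, and no transgene-free sample is analysed here.

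The cells carry 1 of 2 barcode endings, called set 1 (6332 cells) and set 2 (9410 cells) below. Neither the labels nor the column names tie an ending to a tissue. The sets are therefore described as a split of the table, not as a comparison of PIN with PCa. The cell number and the mean genes and UMIs per cell given for PIN in the methods of the study match those of set 1 (3751 genes and 21297 UMIs). Those given for PCa are close to those of set 2 (3532 genes and 19902 UMIs). These matches were not used to assign the cells. Set 1 had a median of 17235 UMIs (unique molecular identifiers, each a tag of 1 captured RNA molecule) per cell and set 2 a median of 14824.5, and 67 barcode sequences occurred in both. With 1 library a set, no difference has a replicate check and none was tested. The 95% intervals below cover counting error only, and "higher" and "lower" describe these cells. Cells were placed in classes from marker genes, and the features EGFP and ARQ were read as mGFP and hARtg from their names. After removal of called doublets, luminal-like cells numbered 3293 in set 1 and 8098 in set 2. Basal-like cells numbered 1551 and 287, and leukocyte-like cells 1078 and 250. The basal-like name is the less certain, since the basal score was under 2 times the next best score in 735 and 207 of those cells.

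Cells copy their DNA in S phase and divide it in mitosis, and most genes of the machinery are transcribed just ahead of use. At the passage from G1 into S, E2F factors switch on the genes that license and fire replication origins and that make nucleotides. Later, factors that read CHR elements and others that read CCAAT boxes switch on the mitotic genes, many of whose products are destroyed as the cell divides. In adult prostate most epithelial cells are out of the cycle, so these genes mark the few that divide.

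Promoter windows of 250 bases before to 50 bases after the start, from RefSeq on GRCm38.p6, could be matched for 34 of the 42 members in 36 windows. Aurkb, Ccna2, Ccne2, Gins2, Mcm4, Pbk, Stmn1 and Tpx2 were not matched. Some windows, such as those of E2f1, Cdc6, Cdca3 and Aurka, lie inside the gene span and miss its outermost start. Letters near that start were not searched. Letter strings of 3 kinds were searched on both strands, E2F (TTTCGCGC or TTTGGCGC), CHR (TTTGAA) and CCAAT. The E2F letters were in 6 of 14 S genes (42.9%, Cdt1, Mcm3, Mcm5, Mcm6, Mcm7 and Uhrf1), in 1 of 20 G2/M genes (5%, Cdk1) and in 0.929% of all 27025 genes with a window. The CHR letters were in 15 of 20 G2/M genes (75%), in 1 of 14 S genes (7.14%, Mcm2) and in 20.2% of all genes. CCAAT was in 18 of 20 G2/M genes (90%), 9 of 14 S genes (64.3%) and 41.1% of all genes. Both CHR and CCAAT were in 15 of 20 G2/M windows, 1 of 16 S windows and 6.95% of all 32851 windows. A match is a description of the letters and does not show a bound site.

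Stretches from 190 bases before to 30 bases after the start are printed below for Mcm6 and Mcm5 (S) and Ube2c and Cenpa (G2/M). The S genes were taken only among those with E2F letters, the G2/M genes only among those with CHR and CCAAT. Within these they had the lowest and the highest ratios of set 2 in the phase order described next. E2f1 and Mcm2, whose windows hold no E2F letters, lay lower in that order than Mcm5. The E2f1 window (chr2:154569377-154569676, minus strand) does not reach the outer start of the gene span, at 154569892. Mcm6 is at chr1:128359676-128359895 on the minus strand, Mcm5 at chr8:75109319-75109538 on the plus strand, Ube2c at chr2:164769739-164769958 on the plus strand and Cenpa at chr5:30666696-30666915 on the plus strand. Each reads 5′ to 3′. Capitals mark the E2F letters of either strand in Mcm6 and Mcm5, where 2 matches on opposite strands overlap at positions -110 and -106 (Mcm6) and at -153 and -149 (Mcm5). In Ube2c and Cenpa capitals mark CCAAT or its reverse ATTGG, and the CHR letters TTTGAA or their reverse TTCAAA, which begin at -29 in Ube2c and at position 17 after the start in Cenpa.
Mcm6: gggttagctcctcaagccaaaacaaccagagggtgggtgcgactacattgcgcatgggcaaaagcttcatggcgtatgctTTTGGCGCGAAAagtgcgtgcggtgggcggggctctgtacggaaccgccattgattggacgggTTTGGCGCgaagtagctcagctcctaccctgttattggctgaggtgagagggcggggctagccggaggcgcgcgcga
Mcm5: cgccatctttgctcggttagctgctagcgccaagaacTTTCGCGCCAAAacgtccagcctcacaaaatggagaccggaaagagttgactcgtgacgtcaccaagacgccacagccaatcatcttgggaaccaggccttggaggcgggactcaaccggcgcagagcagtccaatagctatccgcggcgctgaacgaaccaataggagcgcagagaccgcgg
Ube2c: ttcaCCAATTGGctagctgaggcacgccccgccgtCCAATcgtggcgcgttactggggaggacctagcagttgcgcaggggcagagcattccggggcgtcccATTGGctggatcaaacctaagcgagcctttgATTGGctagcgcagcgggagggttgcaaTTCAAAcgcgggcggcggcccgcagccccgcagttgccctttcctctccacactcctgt
Cenpa: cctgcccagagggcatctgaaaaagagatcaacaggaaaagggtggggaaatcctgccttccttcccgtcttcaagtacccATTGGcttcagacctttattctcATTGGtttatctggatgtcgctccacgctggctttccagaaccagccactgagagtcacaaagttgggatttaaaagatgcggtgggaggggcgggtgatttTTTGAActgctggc

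To order the members by phase without using them, luminal-like cells were called from 22 other S genes and 25 other G2/M genes. A cell with at least 6 of the S reference genes was called S, one with at least 6 of the G2/M reference genes G2/M, and one with both "S and G2/M", while a cell with at most 2 of each was in neither phase. The rest, 1610 cells of set 2 and 1189 of set 1, lay between and were put in none of these groups. Set 2 held 386 S, 394 S and G2/M and 149 G2/M cells, 929 cycling cells or 11.5% of its luminal-like cells. Set 1 held 47, 35 and 17, or 99 cycling cells (3.01%). The calls used all UMIs of a cell and so favour deep cells: the median was 35772 UMIs in cycling and 12777 in neither-phase cells of set 2, and 47070 and 23508 in set 1. The part of depth in these numbers was not tested. Levels are in CPM, which scale a gene's UMIs, summed over a group of cells, to 1000000 UMIs of that group, and ratios as log2 with 5 CPM added to each side.

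In both sets the members fell in the order of their known use. The log2 ratio of G2/M cells over S cells was below 0 for all 17 S members of set 2, with a median of -0.80, and above 0 for all 25 G2/M members, with a median of 2.45. The 95% intervals lay wholly below 0 for 14 S members and wholly above 0 for 25 G2/M members. In the 99 cycling cells of set 1, 16 of 17 S members were below 0 (median -0.56, 5 intervals below) and 25 of 25 G2/M members above (median 1.29, 18 intervals above). Cdc6 was the S member above 0, at 0.19 from 3.87 CPM in G2/M and 2.76 CPM in S cells, and its interval crossed 0. Across the 42 genes, the ratios of the sets had a Pearson r of 0.94 and a Spearman rho of 0.945, and 41 genes were on the same side of 0. These points share cell calls within each set, and genes are not replicates. In leukocyte-like cells of set 1, 38 cells were cycling (6 S, 30 S and G2/M and 2 G2/M), and 37 genes were on the same side of 0 as in luminal-like cells of set 2. Cycling basal-like cells numbered 9 and 6, too few to order genes.

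**Figure D1:**
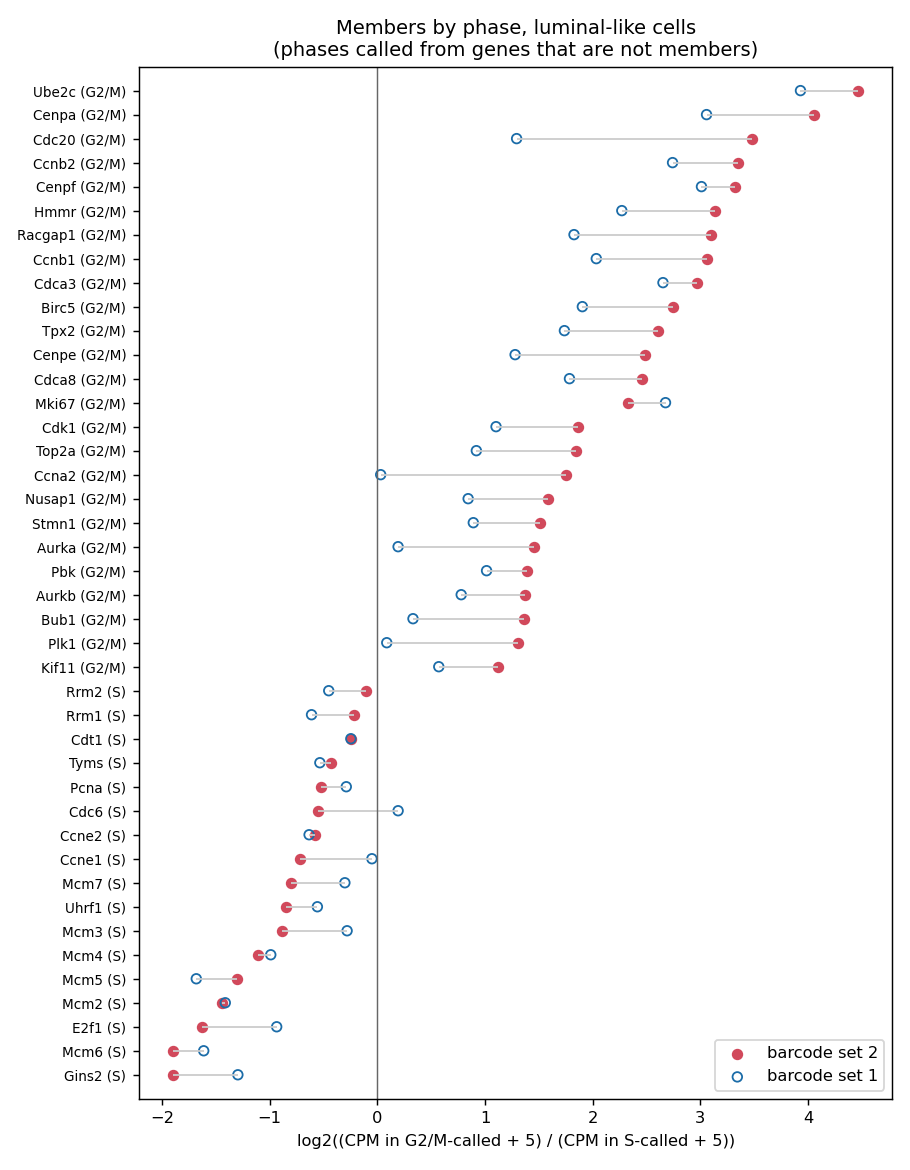
Log2 ratio of CPM (5 CPM added) in G2/M-called over S-called luminal-like cells for each of the 42 members, ordered by barcode set 2 (filled points), with set 1 as open points; the vertical line is 0. In set 2 the S members lie from -1.90 to -0.11 and the G2/M members from 1.12 to 4.47, with a gap between them, while in set 1 Cdc6 lies above 0 and Ccna2 at 0.03.

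The lowest ratios of set 2 belonged to Gins2 and Mcm6, genes of the replication fork helicase. The replicative helicase is a ring of Mcm2 to Mcm7, loaded by Cdc6 and Cdt1 and activated with the GINS complex, of which Gins2 is a subunit. Gins2 stood at 47.1 CPM in S, 38.1 CPM in S and G2/M and 9.0 CPM in G2/M cells of set 2, a ratio of -1.90. Mcm6 stood at 41.3, 45.7 and 7.46 CPM (-1.89). Mcm2 (-1.44), Mcm5 (-1.31), Mcm4 (-1.10), Mcm3 (-0.89) and Mcm7 (-0.80) followed, so that all 6 helicase subunits were lower in G2/M than in S cells. Set 1 gave -1.68 for Mcm5, -1.61 for Mcm6, -1.41 for Mcm2, -1.30 for Gins2, -0.99 for Mcm4, -0.30 for Mcm7 and -0.28 for Mcm3. Among the loaders, Cdc6 stood at 3.31 CPM in S and 0.66 CPM in G2/M cells of set 2 (-0.55) and Cdt1 at 14.2 and 11.2 CPM (-0.24).

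Genes of the G1/S switch were of the same kind. E2f1, an activating E2F factor, stood at 20.7 CPM in S and 3.29 CPM in G2/M cells of set 2, a ratio of -1.63. Uhrf1, which carries DNA methylation over to the new strand, had -0.85, and the E-type cyclins Ccne1 and Ccne2, which drive entry into S phase with Cdk2, had -0.72 and -0.58. In set 1 these ratios were -0.94 for E2f1, -0.56 for Uhrf1, -0.05 for Ccne1 and -0.63 for Ccne2, the last from 0 UMIs in the 17 G2/M cells. Ccne2 shares 5622 bases with Ints8 and its UMIs are therefore less certain.

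In set 2 the genes that serve DNA synthesis itself leaned less towards S cells than the median S member (-0.80). They were highest in the cells called S and G2/M, as were 14 of 17 S members of set 2 and 17 of 17 of set 1. Pcna, the sliding clamp of the polymerases, stood at 68.7 CPM in S, 96.9 CPM in S and G2/M and 46.3 CPM in G2/M cells of set 2, a ratio of -0.52. Rrm2, the regulated subunit of ribonucleotide reductase, stood at 28.5, 113 and 26.1 CPM (-0.11), and its partner subunit Rrm1 at 40.3, 88.6 and 34.0 CPM (-0.21). Thymidylate synthase, Tyms, stood at 68.1, 129 and 49.2 CPM (-0.43). The intervals of Cdt1, Rrm1 and Rrm2 crossed 0, so their order in S against G2/M cells was not detectable at this depth. In set 1 the 4 ratios were -0.29 for Pcna, -0.45 for Rrm2, -0.61 for Rrm1 and -0.53 for Tyms, beside a median of -0.56 for all S members. Named pseudogenes exist for Pcna and Tyms.

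Among the mitotic genes of set 2, the highest ratios belonged to Ube2c, Cenpa, Cdc20 and Ccnb2. Ube2c and Cdc20 are the ubiquitin-conjugating enzyme and the activator of the anaphase-promoting complex, which ends mitosis by destroying cyclins and securin. Ube2c stood at 11.3 CPM in S, 317 CPM in S and G2/M and 355 CPM in G2/M cells of set 2, against 3.6 CPM in neither-phase cells, a ratio of 4.47. Cdc20 stood at 8.19, 115 and 142 CPM, against 1.69 CPM (3.48). Cenpa, the histone H3 variant of centromeres, stood at 6.32, 142 and 183 CPM, against 2.55 CPM (4.05). The kinetochore genes Cenpf and Cenpe had 3.32 and 2.48. Ccnb2 and Ccnb1, the B-type cyclins that activate Cdk1 at entry into mitosis, had 3.35 and 3.06. In set 1 Ube2c had 3.93, Cenpa 3.06, Cenpf 3.01, Ccnb2 2.74, Ccnb1 2.03, Cdc20 1.29 and Cenpe 1.28.

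A second group of G2/M members was highest in the cells called S and G2/M and lower in those called G2/M alone. Top2a, the topoisomerase that untangles sister chromatids, stood at 8.12 CPM in S, 100 CPM in S and G2/M and 42.1 CPM in G2/M cells of set 2, a ratio of 1.84. Cdk1, the kinase that drives mitosis, stood at 10.1, 96.3 and 49.8 CPM (1.86). The mitotic kinase gene Pbk stood at 7.40, 93.0 and 27.4 CPM (1.39), and Ccna2, the A-type cyclin that acts from S phase to early mitosis, at 3.31, 38.3 and 23.0 CPM (1.76). Set 2 had 7 G2/M members that were higher in G2/M cells than in S and G2/M cells, namely Ccnb2, Cdc20, Cenpa, Cenpe, Cenpf, Hmmr and Ube2c, and 18 that were not. Set 1 had 0 of the former, from 17 G2/M cells, where Cenpa was closest with 90.3 CPM against 90.5 CPM.

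The remaining G2/M members had ratios from 1.12 to 3.14 in set 2. The chromosomal passenger genes Birc5 and Cdca8 had ratios of 2.75 and 2.45 in set 2, and Aurkb, the kinase of that complex, had 1.37. The spindle genes Hmmr and Tpx2 had 3.14 and 2.61, and Racgap1, which acts in cytokinesis, had 3.1. The mitotic spindle kinesin Kif11 had the lowest ratio of the 25, at 1.12, with Nusap1 at 1.59. Cdca3, which promotes entry into mitosis, had 2.97 and Mki67, the gene of the Ki-67 antigen, 2.33. The mitotic kinases Plk1, Bub1 and Aurka had 1.31, 1.36 and 1.46, and each stood under 3 CPM in S cells. Stmn1, a microtubule-destabilising protein also used outside division, had 1.51 and stood at 16.0 CPM in neither-phase cells. In set 1 Ccna2 (0.03), Plk1 (0.09), Aurka (0.19) and Bub1 (0.33) had intervals that crossed 0, and Mki67 had 2.68.

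Promoter letters and phase ratios were set side by side as a description. In set 2 the 6 S members with E2F letters had a median ratio of -0.87, and the 8 with a window but without them -0.54. In set 1 the medians were -0.43 and -0.49, the other way round. The 15 G2/M members with CHR letters had medians of 2.97 (set 2) and 1.83 (set 1), and the 5 without them 2.48 and 1.28. The ranges of the groups overlapped in each of these comparisons.

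In luminal-like cells of both sets, cycling cells held more of the UMIs of the median G2/M member than of the median S member. The ranges of the groups overlapped. UMIs of the cells that lay between the calls count here as outside cycling cells. In set 2, cycling cells held 19.8% of all UMIs of luminal-like cells. They held 74.7% (Kif11) to 94.5% (Pbk) of the UMIs of the G2/M members, with a median of 87.6%. For the S members the share was 35.6% (Pcna) to 78.0% (Uhrf1), with a median of 61.4%. In set 1, where cycling cells held 4.38% of all UMIs, the shares ran from 24% (Aurka) to 97.7% (Pbk) for G2/M members (median 78.5%) and from 10.7% (Pcna) to 75.8% (Uhrf1) for S members (median 28.3%). Pcna stood at 33.6 CPM in neither-phase cells of set 2 and at 37.6 CPM in those of set 1.

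The levels of the members differed between the classes and between the sets. Summed over the 25 genes, the G2/M members reached 360 CPM among luminal-like cells in set 2, and 93.5 CPM among those in set 1. Basal-like cells had 268 CPM (set 2) and 66.4 CPM (set 1). In leukocyte-like cells the order of the sets was the opposite, with 348 CPM in set 2 and 1098 CPM in set 1. The S members summed to 223 (set 2) and 135 CPM (set 1) in luminal-like cells, to 245 and 156 CPM in basal-like cells, and to 230 and 586 CPM in leukocyte-like cells. Fibroblast-like cells had 166 and 44.8 CPM of G2/M members, and the few endothelial-like cells 227 and 236 CPM. For Ube2c, luminal-like cells had 43.6 CPM (42.6 to 44.6) in set 2 and 6.07 CPM (5.60 to 6.57) in set 1, and leukocyte-like cells 23.6 and 71.6 CPM. Mki67 stood at 15.4, 4.15, 21.5 and 52.0 CPM in the same order.

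**Figure D2:**
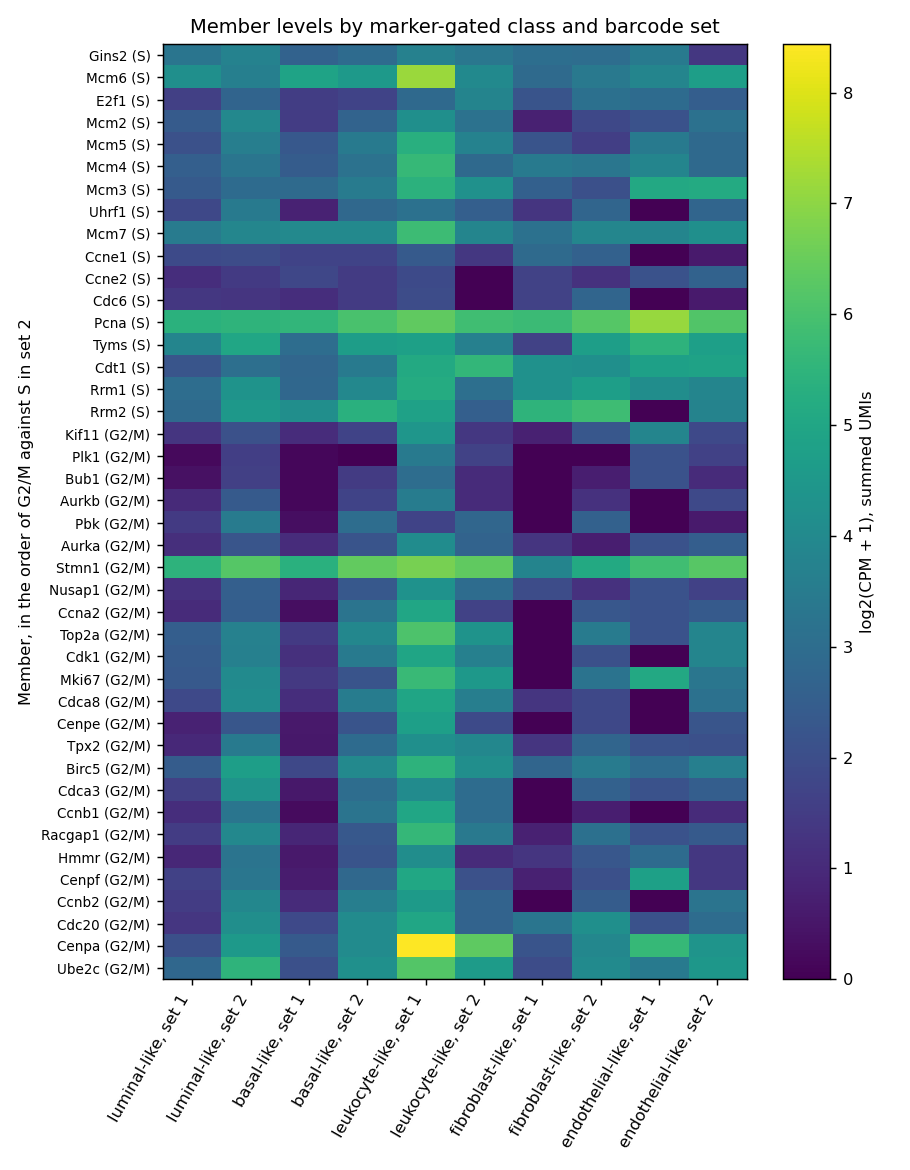
Level of each member, as log2(CPM + 1) of summed UMIs, in 5 marker-gated classes of each barcode set, with the members in the order of G2/M against S ratio in set 2. Leukocyte-like cells of set 1 stand out with the highest levels of most G2/M members, where Cenpa reaches 346 CPM, while luminal-like cells of set 1 have low levels of G2/M members (median 1.68 CPM).

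Cenpa stood apart in leukocyte-like cells. It stood at 346 CPM (331 to 361) there in set 1, where 57.7% of cells had a UMI of it, and at 80.5 CPM (68.1 to 94.4) in set 2, against 3.21 and 22.3 CPM for luminal-like cells. Cycling cells held 20.4% of the Cenpa UMIs of leukocyte-like cells of set 1, beside 97.8% of the Ccnb2 UMIs, and 12.4% of all UMIs. In neither-phase cells of set 1 Cenpa stood at 368 CPM (344 to 394) in Cd3-positive cells and 229 CPM (199.99 to 261) in cells with myeloid markers. In set 2, myeloid-marker cells in neither phase stood at 61.0 CPM (49.0 to 75.0) and the 29 Cd3-positive ones at 240 CPM (147 to 371). Mcm6 was similar, at 143 CPM in leukocyte-like cells of set 1 with 24.6% of its UMIs in cycling cells, and at 15 CPM in set 2. The neither-phase Cd3-positive cells of set 1 had a median of 3372 UMIs, a depth at which a phase call is easily missed, and how many of them were in cycle was not tested.

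Within luminal-like cells the members varied together from cell to cell, G2/M genes more than S genes. Over pairs of members, the median Pearson r of the deposited log values across cells was 0.57 for G2/M with G2/M (300 pairs), 0.27 for S with S (136 pairs) and 0.20 for S with G2/M (425 pairs) in the 8098 cells of set 2. In the 3293 cells of set 1 the medians were 0.49, 0.23 and 0.23. The median over all pairs of features found in at least 1% of cells was 0.005 and 0.003. All of these share the depth of the cells, and at 3000 UMIs a cell they were lower, at 0.22, 0.07 and 0.06 in set 2 and 0.15, 0.04 and 0.05 in set 1. G2/M pairs had the highest median in each case.

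The closest pairs of all were of G2/M genes. In set 2 they were Ccnb2 with Cenpa and Birc5 with Cdca3, each at 0.79, and in set 1 Cdk1 with Birc5 and Mki67 with Top2a, each at 0.77. Among the S genes, Mcm5 with Uhrf1 reached 0.54 in set 2. Not all S members had an S gene as closest partner. In set 2 Tyms, Rrm1, Rrm2 and Ccne1 had Pbk, a G2/M member, at 0.50, 0.51, 0.50 and 0.30. In set 1 Tyms, Rrm2 and Cdt1 had Pbk, Ccne1 and Ccne2 had Ccna2, Mcm5 had Cdk1 (0.52) and Uhrf1 had Cdca8, at 0.59 the highest r of any S member. Ccne2 and Cdc6 had the weakest ties, with best r values of 0.17 and 0.19 in set 2. Aurka and Plk1 reached 0.55 and 0.54 in set 2 and 0.23 and 0.25 in set 1.

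Of the other 17138 features ranked, those that varied most like the mean of the G2/M members in luminal-like cells, as the mean r over the sets, were 2810417H13Rik (0.713), Spc24 (0.712), Smc2 (0.689), Prc1 (0.673), Melk (0.662), Knstrn (0.654), Cdkn3 (0.651), Tacc3 (0.613), Ect2 (0.604) and Ska1 (0.597). Spc24, Ska1 and Knstrn act at the kinetochore and Smc2 in condensin. For the mean of the S members they included 2810417H13Rik (0.703), Smc2 (0.611), Hells (0.571), Spc24 (0.537), Atad2 (0.530), Dut (0.525), Lig1 (0.520) and Dtl (0.498). Lig1 joins the pieces of the lagging strand and Dut removes dUTP. Prc1, Tacc3, Ect2, Hells, Atad2 and Dtl are among the reference genes of the phase calls. 2810417H13Rik, Smc2 and Spc24 were in both lists.

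For the share of cycling cells at matched depth, a random draw of 3000 UMIs was taken from every cell that had as many. A cell was G2/M-positive with at least 3 different G2/M members (Stmn1 not used), and S-positive with at least 3 different S members if it was not G2/M-positive. Among luminal-like cells, 466 of 8000 cells in set 2 were G2/M-positive (5.83%, 95% Clopper-Pearson interval 5.32 to 6.36%) and 31 of 3268 in set 1 (0.949%, 0.645 to 1.34%). S-positive cells were 2.61% (2.27 to 2.99%) and 0.826% (0.545 to 1.20%). At least 1 G2/M member was seen in many more cells, for 598 cells of set 2 had exactly 1 and 146 exactly 2, while the highest number was 17 in set 2 and 12 in set 1. G2/M-positive cells had been deeper before thinning, with a median of 27371 UMIs against 16097.5 in the other luminal-like cells of set 2, and 37013 against 28209 in set 1. Basal-like cells were G2/M-positive in 7 of 273 cells of set 2 (2.56%, 1.04 to 5.21%) and 2 of 1532 of set 1 (0.131%, 0.0158 to 0.471%).

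Leukocyte-like cells were the class with the largest share in set 1. There 48 of 817 cells (5.88%, 4.36 to 7.71%) were G2/M-positive and 77 (9.42%, 7.51 to 11.6%) S-positive, and in set 2 8 of 222 (3.6%, 1.57 to 6.98%) and 6 (2.70%, 0.998 to 5.79%). As many as 261 and 28 leukocyte-like cells were under 3000 UMIs and left out. Of the Cd3-positive cells of set 1, 37 of 534 (6.93%) were G2/M-positive, and of the cells with myeloid markers 4 of 163 (2.45%, 0.673 to 6.16%). Because Cenpa was high in neither-phase cells here, it was left out of the call in an alternative chosen after seeing the data, and the share became 4.53%. Fibroblast-like cells had 0 of 145 in set 1, whose interval reached 2.51%, and 6 of 234 (2.56%) in set 2. Endothelial-like cells had 1 of 37 and 5 of 148. Over all classes the shares were 1.40% in set 1 and 5.49% in set 2, for mixtures of classes that differ between the sets.

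**Figure D3:**
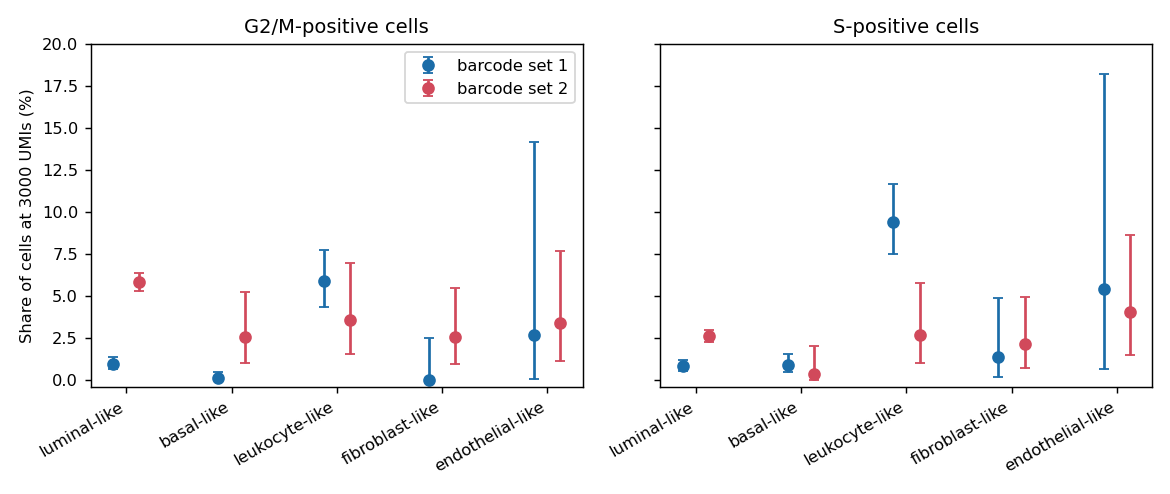
Share of G2/M-positive and of S-positive cells (percent of cells with at least 3000 UMIs, each thinned to 3000) by marker-gated class and barcode set, with exact 95% Clopper-Pearson intervals that cover counting error only. In set 2 the luminal-like share of 5.83% lies above its set 1 value of 0.949% with no overlap of intervals, and the leukocyte-like intervals of the sets overlap for G2/M.

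The next question was whether cells with more reporter UMIs at 3000 were more often in G2/M. In set 2, 460 of 7556 luminal-like cells with at least 10 EGFP UMIs at 3000 were G2/M-positive (6.09%, 5.56 to 6.65%), 6 of 306 with 1 to 9 (1.96%, 0.723 to 4.22%) and 0 of 138 with none, whose interval reached 2.64%. In set 1 the order was the other way round, with 2 of 421 (0.475%, 0.0576 to 1.71%), 3 of 424 (0.708%) and 26 of 2423 (1.07%, 0.702 to 1.57%), but all intervals overlapped. Whether the sets differ in this was not tested. By the transgene feature ARQ, set 2 showed no such step: 35 of 669 cells with 0 UMIs (5.23%, 3.67 to 7.20%), 118 of 1775 with 1 or 2 (6.65%, 5.53 to 7.91%) and 313 of 5556 with 3 or more (5.63%, 5.04 to 6.27%) were G2/M-positive. In set 1 they were 28 of 2568 (1.09%), 3 of 457 (0.656%) and 0 of 243, which had an upper bound of 1.51%. Basal-like cells gave 1 of 1032, 1 of 202 and 0 of 298 in the EGFP bins of set 1, and 1 of 54, 3 of 102 and 3 of 117 in set 2, too few to order.

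The EGFP bins were not alike in other respects, and the part of these in the shares was not tested. Leukocyte-like cells, which should lack the reporter, had 1 to 9 EGFP UMIs in 140 of 222 cells of set 2 and in 79 of 817 of set 1, and at least 10 in 5 and 2 cells. The source of these UMIs was not tested, and the middle bin of luminal-like cells overlaps their range. In set 2, the 138 luminal-like cells with none had a summed level of the 7 basal markers of 888 CPM, against 53.6 CPM in the cells with at least 10. In set 1 the cells with at least 10 had 1935 CPM of the basal and 11619 CPM of the luminal markers, against 1326 and 23966 CPM in those with none. For the cells of set 2 with no EGFP, the summed level of the 8 luminal markers was 18618 CPM, against 18806 CPM in those with at least 10, with Pbsn, a secretory gene of mature luminal cells, the highest at 6035 CPM. In G2/M-positive cells of set 2 Pbsn stood at 45.0 CPM, against 365 CPM in the luminal-like cells that were neither G2/M- nor S-positive, and EGFP at 8814 against 10166 CPM. In set 1 Pbsn stood at 3105 and 2839 CPM in the same pair of groups.

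**Figure D4:**
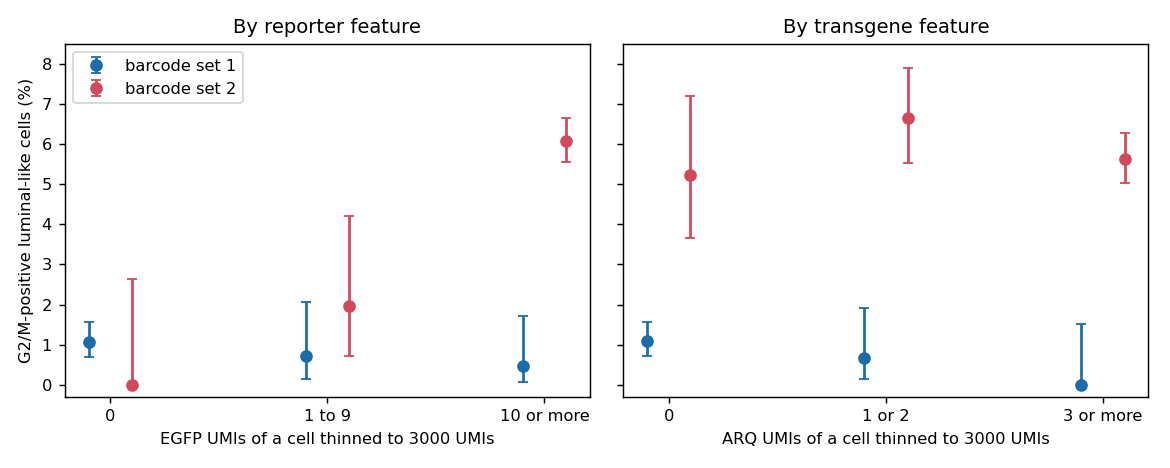
Share of G2/M-positive luminal-like cells (percent) by the number of EGFP UMIs (left) or ARQ UMIs (right) in a cell thinned to 3000 UMIs, for each barcode set, with exact 95% Clopper-Pearson intervals for counting error. In set 2 the share is 6.09% with at least 10 EGFP UMIs and 0 with none, while the shares by ARQ run from 5.23% to 6.65% and their intervals overlap. Both bins of 0 include cells whose UMIs of the feature were lost in thinning, and ARQ is scarcer than EGFP.

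The same split was read gene by gene, as the log2 ratio of cells with at least 10 EGFP UMIs over cells with none. A feature entered with at least 5 CPM on either side and was called at 2-fold or more. In luminal-like cells of set 2, 18 of 25 G2/M members and 14 of 17 S members entered. Of these, 17 G2/M and 6 S members were higher, against 7.5% of the 9553 features that entered, and 0 were lower, against 11.6%. Among the G2/M members that entered, only Stmn1 reached 5 CPM in the cells with none (31.2 CPM). The others, and the S members under 5 CPM there, could not have been called lower. All 42 ratios were above 0, with medians of 1.5 for G2/M and 0.82 for S members (all features -0.11). Of the G2/M members 9 had 0 UMIs among the 138 cells with no EGFP, and with these at a floor of 3 UMIs over the group (1.01 CPM) the G2/M median was 1.37. Birc5 stood at 26.9 CPM and was at least 26.8-fold higher than that floor, and Mki67 at 16.0 CPM and at least 15.9-fold. Ube2c stood at 45.4 CPM against 1.34 CPM from 4 UMIs, with a ratio of 2.99 and an interval of 3.73 to 6.96 for the ratio without the added 5 CPM. Among S members Mcm5 stood at 11.5 against 0.67 CPM from 2 UMIs (2.25 to 7.15 without the added CPM) and Tyms at 31.9 against 8.71 CPM (1.43). Pcna, at 44.8 against 26.5 CPM (0.66), and Mcm6, at 11.7 against 7.71 CPM (0.39), were not called.

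In luminal-like cells of set 1, 12 of the 42 members had enough signal and 0 were called in either direction, beside 2.28% of features higher and 1.51% lower. The medians were -0.19 for G2/M and -0.18 for S members (all features -0.12), and 4 members were above 0. Intervals without the added CPM lay below 0 for 13 G2/M and 8 S members of set 1 and above 0 for 0, whereas in set 2 they lay above 0 for 24 and 13 and below 0 for 0. The share of all features with such an interval was not computed. These intervals count UMIs as independent, but in set 1 only 2 of 421 and 26 of 2423 cells were G2/M-positive. They therefore understate the spread, and the members are not separate findings. In basal-like cells of set 1, 10 members had enough signal and 0 were called, beside 1.14% higher and 1.48% lower. In basal-like cells of set 2 (117 against 54 cells), 5 G2/M members were higher, beside 5.75% of features, and 2 were lower, beside 2.41%. The higher ones were Ccnb2, Ube2c, Tpx2, Cdc20 and Cenpa, and the lower ones Top2a (11 against 14 UMIs) and Cdk1 (8 against 11 UMIs). Cenpa had 29 against 3 UMIs, with an interval of 0.38 to 4.43 without the added CPM. These counts came from few cells, and with every cell weighing the same 1 G2/M member was higher.

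Set against each other, luminal-like cells of set 2 had more of most members than those of set 1. With at least 5 CPM on either side, 17 of 25 G2/M members and 14 of 17 S members entered. At 2-fold or more, 13 G2/M and 3 S members (Mcm2, Rrm1 and Rrm2) were higher, beside 6.95% of the 9517 features that entered. None was lower, beside 12.6%. Among the G2/M members that entered, only Ube2c and Stmn1 reached 5 CPM in set 1. The others, and the S members under 5 CPM there, could not have been called lower. The median ratio was 1.16 for G2/M and 0.49 for S members (all features -0.14), and the interval lay above 0 for 25 G2/M and 14 S members. For intervals the share over all features was not computed. Ube2c stood at 43.6 against 6.07 CPM (2.13), Cdca3 at 19.1 against 2.04 CPM (1.78), Cdc20 at 17.1 against 1.53 CPM (1.76), Cenpa at 22.3 against 3.21 CPM (1.73) and Birc5 at 25.8 against 4.51 CPM (1.70). Mcm6 was the member with its interval below 0, at 11.5 against 17.5 CPM (-0.45). The luminal-like cells also differed in depth (medians 16508.5 and 28113 UMIs) and in EGFP level (10021 and 1052 CPM), whose part was not tested.

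The difference was smaller among cycling cells alone. Those cells were picked in both sets by the same minimum of detected cycle genes, a choice that by itself draws the ratios together. Its part in the smaller difference was not tested. When the 929 cycling cells of set 2 were set against the 99 of set 1, 3 G2/M members and 0 S members were higher at 2-fold or more, beside 7.09% of 9874 features, and 0 were lower, beside 14.1%. The median ratios were 0.48 for G2/M and -0.18 for S members (all features -0.16). By phase the cycling cells were 41.6% S, 42.4% S and G2/M and 16.0% G2/M cells in set 2 and 47.5%, 35.4% and 17.2% in set 1. Cdc20 differed most, at 75.4 against 16.5 CPM (1.91, 1.86 to 2.55 without the added CPM), followed by Tpx2 at 46.5 against 18.5 CPM (1.13) and Cdca3 at 80.8 against 37.8 CPM (1.0). Within cells called S and G2/M, Cdc20 stood at 115 against 38.2 CPM, while Top2a stood at 100 against 215 CPM and Mki67 at 99.5 against 184 CPM. Over cycling cells 16 G2/M members had an interval above 0 and 5 had it below, namely Stmn1 (-0.63), Top2a (-0.57), Kif11 (-0.48), Cdk1 (-0.45) and Mki67 (-0.26). Of the S members 2 were above (Mcm2 and Rrm1) and 9 below, Mcm6 lowest at 38.9 against 80.1 CPM (-0.95). No share of all features with such intervals was computed.

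**Figure D5:**
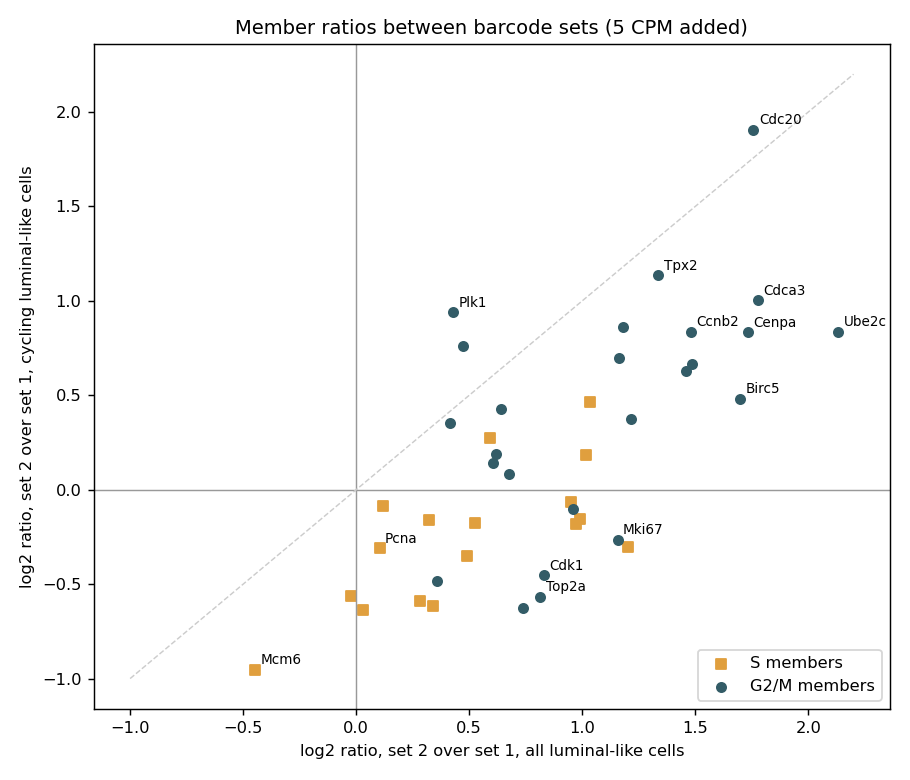
Log2 ratio (5 CPM added) of set 2 over set 1 for each member, in all luminal-like cells (horizontal axis) and in cycling luminal-like cells only (vertical axis), with S and G2/M members as separate symbols. Cdc20 is highest among cycling cells at 1.91 and Mcm6 lowest at -0.95, and most members lie nearer 0 on the vertical than on the horizontal axis.

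In luminal-like cells in neither phase (5559 and 2005 cells), 0 members were higher at 2-fold or more, beside 6.71% of 9443 features. Of all 42, 1 was lower, Mcm6 at 3.2 against 15.3 CPM (-1.31), beside 12.1% of features. That ratio of Mcm6 came from 283 and 757 UMIs, with an interval of -2.46 to -2.05 without the added CPM. Rrm2 was the highest at 10.4 against 2.78 CPM (0.99, just under 2-fold). The median was 0.12 for both groups of members (all features -0.15), and 1 G2/M member and 8 S members had enough signal for a call. With 5 CPM added, members at such low levels could hardly reach 2-fold. Without the added CPM, the interval lay above 0 for 17 G2/M and 9 S members and below 0 for 1 and 6. Here too the share over all features was not computed. Cdca3 stood at 2.56 against 0.30 CPM, with an interval of 2.33 to 3.94. The neither-phase cells had a median of 12777 UMIs in set 2 and 23508 in set 1, and a phase call is more easily missed in shallower cells. How many of them were in cycle was not tested.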

How the data were processed

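Single cells of 1 PIN and 1 PCa prostate sample were profiled. The authors counted UMIs with Cell Ranger 3.1.0 against mm10 with the mGFP and hARtg sequences added, filtered out likely empty droplets, multiplets and dying cells, and deposited values on the natural log scale, the ln of 1 plus the UMIs of a gene per 10000 UMIs of its cell. UMIs were recovered from these and were whole for 100% of values within a relative tolerance of 0.001. Doublets were scored with Scrublet in scanpy 1.11.5. Its automatic limits called 0 cells, and a score limit of 0.25, chosen with the scores in view, removed 145 (2.29%) and 176 (1.87%) cells. A cell took the class whose markers scored highest, with at least 3 of them detected. The 16 and 41 smooth muscle-like cells and the 51 and 118 unassigned cells were not described. Sums over cells were compared as CPM ratios with 5 CPM added, for features with at least 5 CPM on either side.

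The text names every member, the reference genes that bear on the phase calls, and the 10 features that correlate most with the mean of each group, of which some are not reported here. Members and lists were chosen with earlier results of these data known. Shares carry Clopper-Pearson, CPM Poisson and ratios conditional binomial intervals at 95%. The Poisson and binomial intervals count UMIs as independent, although many UMIs of a cycle gene can come from the same cell. The ratio code was tested on simulated data. Alternatives changed the thinning depth, the number of members in a call, the reference genes, the weight of cells, doublets, the pseudocount and the split by EGFP. Of the members, 8 overlap another gene of the table and 5 have named pseudogenes or related sequences, among which reads may be split.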

Additional observations from a re-analysis of the deposited data

Results flagged for a closer look

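The share of G2/M-positive luminal-like cells at 3000 UMIs differed in direction between the barcode sets when cells with at least 10 EGFP UMIs were set against cells with none. The difference was -0.598 percentage points in set 1 (2 of 421 against 26 of 2423 cells) and 6.09 percentage points in set 2 (460 of 7556 against 0 of 138 cells). Each set is 1 library, the intervals of the 2 shares overlap in set 1, and the difference between the sets was not tested. In set 2 the cells with no EGFP also had more of the basal markers (888 against 53.6 CPM summed), and in set 1 the cells with at least 10 EGFP UMIs had less of the luminal markers than those with none (11619 against 23966 CPM summed) and more of the basal markers (1935 against 1326 CPM). The part of these was not tested.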

How the results depend on the processing

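The 41 results were recomputed under 148 alternatives. In 103 the value moved by less than counting error or the count stayed within 1.5 times, in 45 it moved by more, and among the latter 1 changed sign, the median ratio of the 25 G2/M members by EGFP in basal-like cells of set 1, which went from -0.04 to 0.03 with a split at 1 or more EGFP UMIs. No paired analysis was possible because PIN and PCa were 1 library each. Intervals cover counting error only, and shares depend on depth, since a shallow cell cannot show 3 members. For the values that moved the cause was not tested except where the setting itself is a change of depth or of call.

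The luminal-like G2/M-positive share of set 1 (0.949%) became 1.38% at 6000 UMIs, 2.92% without thinning, 1.38% with 2 or more members and 0.551% from the reference genes. That of set 2 (5.83%) became 4.71% at 2000 UMIs, 7.91% at 6000, 13.1% without thinning, 7.65% with 2 or more members, 3.88% with 5 or more and 2.90% from the reference genes. In each of these settings set 2 stayed above set 1. Leukocyte-like cells of set 1 (5.88%) gave 4.22% at 2000 UMIs, 19.6% at 6000, where few cells are left, 8.53% without thinning, 16.6% with 2 or more members and 3.79% with 5 or more. Basal-like cells of set 1 (0.131%) gave 0.505% at 6000 UMIs and 0.580% without thinning, and those of set 2 (2.56%) 0 from the reference genes.

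By ARQ in place of EGFP, the high bin of set 1 gave 0% and the empty bin of set 2 5.23%. Both empty bins include cells that had UMIs of the feature before thinning. The 138 cells of set 2 in the empty EGFP bin had held 456 EGFP UMIs. With 5 or more members the high EGFP bin of set 2 gave 4.08%. With every cell weighing the same, the summed G2/M level of luminal-like cells was 84.6 CPM (set 1) and 282 CPM (set 2) and the S level 132 and 201 CPM. With called doublets kept, the G2/M level of set 2 was 357 CPM. At 3000 UMIs the median r of S, G2/M and mixed pairs was 0.041, 0.15 and 0.053 in set 1 and 0.075, 0.22 and 0.056 in set 2.

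With 1 CPM added in place of 5, S members at 2-fold or more were 10 by EGFP in luminal-like cells of set 2 and 7 between the sets, G2/M members were 8 by EGFP in basal-like cells of set 2, and 5 between the sets in cycling cells. The median ratio of the 25 G2/M members by EGFP in luminal-like cells was then 2.87 rather than 1.5 in set 2, and -0.47 rather than -0.19 for the cells of set 1. With every cell weighing the same, 1 S member was higher between the sets, and 1 G2/M member by EGFP in basal-like cells of set 2, where a split at 1 or more EGFP UMIs, chosen after seeing the data like the other seed and the call without Cenpa, gave 2. With cells thinned to 6000 UMIs before the phase calls, the phase ratios of the 42 members had a Pearson r of 0.918 (set 1) and 0.985 (set 2) with those at full depth.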
